A study of Homo sapiens with 19 samples.

Results

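The genes described here encode the MHC class II antigen presentation machinery: HLA-DRB1 and HLA-DRA, HLA-DPA1 and HLA-DPB1, HLA-DMA and HLA-DMB, CD74 and CIITA. They are 8 of the 23441 genes counted by RNA-seq, and were taken by symbol. HLA-DRB1 was the starting point, because its counts were high after HIF-1α re-expression; its difference between those cells and any others is therefore given as a description, without a test. The other 7 genes were added as its partners, and the question was whether they follow it. Of the 8 genes, 5 passed the filter on low counts that left 14225 genes for testing, and HLA-DRB1 passed only through the cells in which it was high. HLA-DRA, HLA-DPA1 and HLA-DPB1 did not pass.

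All libraries came from 786-O, an established VHL-defective clear cell renal cancer line that expresses HIF-2α but no full-length HIF-1α. Pools of these cells were transduced with virus from the pRRL vector alone (control cells), from pRRL-HIF-1a (HIF-1α re-expressing cells) or from pRRL-HIF-2a (HIF-2α overexpressing cells); the cDNAs had been placed in a bicistronic vector with EGFP. RNA-seq was made from 3 libraries of each kind of cells, and ChIP-seq from 1 library per antiserum and kind of cells, which gave 7 lists of peaks. Defective VHL is shared by all groups, so that every comparison was made with endogenous HIF-2α present. Nothing in the sources used here says that the triplicates were separate cultures, so p-values measure the spread between these libraries, which may be technical.

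MHC class II molecules are α/β heterodimers that carry peptides from the endosome to the cell surface for recognition by CD4+ T cells. CD74, the invariant chain, holds new heterodimers in the endoplasmic reticulum and guides them to the endosome, where HLA-DM exchanges the remaining CD74 fragment for antigenic peptide. CIITA is the transactivator of the whole set. It does not bind DNA itself but joins RFX, NF-Y and CREB proteins on the X and Y boxes of the promoters, and interferon γ is its best known inducer outside professional antigen-presenting cells.

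The promoter stretches below, bases 150 to 31 upstream of the RefSeq start (GRCh38.p14), were searched for letters of the module that CIITA acts through. They were chosen because these genes share a known activator. Capitals mark the letters GNAACNGA (searched as the start of an X box), CTGATTGG (Y box) and the shorter core ATTGG that NF-Y recognises, each searched on both strands. The Y box letters include this core. HLA-DPA1 has a pair of RefSeq starts, of which the downstream one is shown. The upstream one held none of these letters within 250 bases upstream of it.
HLA-DRB1, chr6:32589879-32589998, minus strand: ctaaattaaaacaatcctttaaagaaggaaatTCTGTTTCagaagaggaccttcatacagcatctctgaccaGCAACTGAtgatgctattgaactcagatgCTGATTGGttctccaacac
HLA-DPA1, chr6:33073680-33073799, minus strand: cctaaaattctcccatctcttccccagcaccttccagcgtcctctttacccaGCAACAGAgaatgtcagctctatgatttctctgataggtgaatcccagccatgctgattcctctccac
HLA-DPB1, chr6:33075840-33075959, plus strand: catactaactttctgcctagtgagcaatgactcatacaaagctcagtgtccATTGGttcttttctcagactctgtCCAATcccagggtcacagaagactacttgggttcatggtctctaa
HLA-DMA, chr6:32953128-32953247, minus strand: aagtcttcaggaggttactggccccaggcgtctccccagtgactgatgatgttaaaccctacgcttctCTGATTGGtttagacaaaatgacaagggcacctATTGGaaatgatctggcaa
HLA-DMB, chr6:32941059-32941178, minus strand: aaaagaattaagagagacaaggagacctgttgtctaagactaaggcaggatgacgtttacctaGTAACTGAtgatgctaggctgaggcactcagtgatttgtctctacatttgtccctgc
CD74, chr5:150412941-150413060, minus strand: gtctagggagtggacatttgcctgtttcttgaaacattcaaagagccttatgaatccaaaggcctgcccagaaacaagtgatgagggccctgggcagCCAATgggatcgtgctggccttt
Within 250 bases upstream of the start, the X box letters were found in 10.7%, the Y box letters in 3.81% and ATTGG in 32.0% of 35116 RefSeq promoters. HLA-DRB1 had X box letters beginning at -78 on the coding strand and at -118 on the other, and Y box letters at -49. HLA-DMB, at -87, and the downstream HLA-DPA1 promoter, at -98, had X box letters, HLA-DMA had Y box letters at -82, and HLA-DPB1 had ATTGG on either strand without the longer motifs. CD74 had X box letters at -171, outside the stretch shown, and ATTGG at -53. The HIF core, searched as ACGTG and GCGTG, stood in 43.2% of all promoters in this window and among these genes in both HLA-DPA1 promoters alone. HLA-DRA and CIITA were not searched. For the X and Y boxes only these fixed letters were searched, so a promoter without them may still hold a box in other letters. A match, in turn, does not show a working box.

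Library totals ran from 27852754 to 54287621 counts, so that 1 count was worth 0.0186 to 0.0349 CPM (counts per 1000000 of the normalised library size). In HIF-1α re-expressing libraries 1, 2 and 3, HIF1A had 6996, 66455 and 25388 counts, compared with at most 870 in HIF-2α overexpressing cells and 1175, 1290 and 5819 in control cells. EPAS1, which encodes HIF-2α, had 39292, 92964 and 34247 counts in the HIF-2α overexpressing cells and at most 24776 elsewhere. Of 9 genes listed as markers of renal epithelial carcinoma cells, 9 reached 1 CPM in a library of each kind of cells. Their summed level was 5366 to 7789 CPM and came mostly from VIM (mean 5042 CPM over the 9 libraries), so it says little about the others.

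CIITA was barely transcribed in all cells. It had 12, 3 and 10 counts in the control libraries 1, 2 and 3, 11, 9 and 16 in the HIF-1α re-expressing and 4, 2 and 4 in the HIF-2α overexpressing libraries. As a level this was 0.219 ± 0.118 CPM in control cells, 0.265 ± 0.0352 CPM in HIF-1α re-expressing cells and 0.0896 ± 0.0175 CPM in HIF-2α overexpressing cells (mean ± SD, n = 3 each). HIF-1α re-expressing and control libraries overlapped. HIF-1α re-expressing libraries all lay above the HIF-2α overexpressing ones, as did those of 10.8% of the 16611 genes with at least 10 counts. In bulk RNA, fewer cells that express a gene and less RNA per cell cannot be told apart. Control replicate 2 lay within the range of the HIF-2α overexpressing libraries.

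HIF-1α re-expression did not raise CIITA beyond the spread between libraries. The log2 fold change against control was 0.27 ± 0.53 (SE; adjusted p = 0.810, edgeR's quasi-likelihood test), and turned to -0.12 without control replicate 2. Against HIF-2α overexpressing cells it was 1.52 ± 0.58 (adjusted p = 0.288, edgeR), with CPM ratios of 2.80, 3.26 and 2.90 in numbered pairs 1, 2 and 3. HIF-2α overexpressing cells were at -1.25 ± 0.59 against control (adjusted p = 0.837, edgeR). In the GENCODE annotation CIITA overlaps DEXI and a long non-coding RNA on the opposite strand. Reads were counted on UCSC genes, whose extents were not compared, and the strand setting is not given in the sources used here. Whether reads of these neighbours entered the CIITA counts was not tested.

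HLA-DRB1, the β chain of HLA-DR, was seen almost only after HIF-1α re-expression. It had 15, 188 and 33 counts in HIF-1α re-expressing libraries 1, 2 and 3, against 0, 0 and 1 in control and 1, 0 and 0 in HIF-2α overexpressing libraries. The HIF-1α re-expressing libraries thus held 0.368, 4.76 and 0.614 CPM and did not overlap the others, which reached 0.0261 CPM. All 3 libraries lay above the 3 control libraries for 12.8% of the 16611 genes. As the gene was chosen for this difference, nothing is read from that share. Over the 3 libraries of each kind of cells it had 236 counts in HIF-1α re-expressing, 1 in control and 1 in HIF-2α overexpressing cells. Of the 236 counts, 188 came from replicate 2, and the fitted log2 fold change against control fell from 7.31 to 5.34 without that library. Replicate 2 also had the most HIF1A counts and replicate 1 the fewest, the same order as for HLA-DRB1. With 3 libraries and a gene chosen on these values, nothing is read from this order.

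HLA-DRA, the α chain without which HLA-DRB1 cannot form a heterodimer, did not appear with it. It had 0, 0 and 3 counts in the HIF-1α re-expressing, 0 in each HIF-2α overexpressing, and 0, 0 and 1 in the control libraries. HIF-1α re-expressing replicate 2, with 188 counts of HLA-DRB1, had none of HLA-DRA. Every group stood at or under the floor of 3 counts, so no fold is given. Among the other DR β genes, HLA-DRB3, HLA-DRB4 and HLA-DRB5 were listed at 0 in all 9 libraries, and HLA-DRB6 had 1 count in HIF-1α re-expressing replicate 2. Fragments that mapped to more than 1 place were removed by the authors, and these genes are close copies of HLA-DRB1, so that the split of reads among them is uncertain. A value of 0 for such a gene is therefore not read as absence of its RNA.

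The HLA-DP pair came nearest to the pattern of HLA-DRB1, on few counts. HLA-DPB1, the β chain, had 4, 31 and 13 counts in HIF-1α re-expressing libraries 1, 2 and 3, against 0, 0 and 2 in control and 2, 2 and 4 in HIF-2α overexpressing libraries. HLA-DPA1, the α chain, had 2, 20 and 13 counts in HIF-1α re-expressing, 1, 2 and 2 in control and 1, 3 and 7 in HIF-2α overexpressing libraries. For both genes, replicate 2 was the highest and replicate 1 the lowest of the HIF-1α re-expressing libraries, as for HLA-DRB1. How many other genes had this order was not counted. HLA-DPB1 libraries did not overlap those of control cells, but replicate 1, at 0.0980 CPM, lay below the highest HIF-2α overexpressing library, at 0.103 CPM. HLA-DPA1 libraries overlapped in both comparisons, since replicate 1 of the HIF-1α re-expressing cells, at 0.0490 CPM, lay within the control range of 0.0259 to 0.0569 CPM.

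Both DP genes were below the filter, so they were tested in a fit of 19155 genes without that filter. HLA-DPB1 had a log2 fold change of 4.14 ± 1.14 against control (adjusted p = 0.180, edgeR), and 3.97 ± 1.04 with the replicate number as a block (adjusted p = 0.0404, edgeR). With this block 4.84% of the 19155 genes were called higher, and the combination of no filter and a block was added after the data were seen. The value leans on 2 control counts: pooled counts gave a ratio of 20.1 with a counting interval (95%, exact) of 5.27 to 171. HLA-DPA1 had a log2 fold change of 2.46 ± 0.97 (adjusted p = 0.260, edgeR), and with the block 2.31 ± 0.82 (adjusted p = 0.0972, edgeR), with a pooled ratio of 5.86 (2.29 to 19.2). Against HIF-2α overexpressing cells neither gene passed, at 2.27 ± 0.96 for HLA-DPB1 (adjusted p = 0.374, edgeR) and 1.33 ± 0.89 for HLA-DPA1 (adjusted p = 0.592, edgeR). In the GENCODE annotation the genes overlap by 4.786 kb on opposite strands, which may add to the uncertainty of their counts.

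The HLA-DM genes varied more with replicate number than with the HIF-α subunit. HLA-DMA had 25, 82 and 735 counts in HIF-1α re-expressing libraries 1, 2 and 3, 21, 84 and 196 in HIF-2α overexpressing, and 50, 25 and 383 in control libraries. HLA-DMB had 2, 10 and 145 counts in HIF-1α re-expressing, 1, 2 and 34 in HIF-2α overexpressing, and 1, 8 and 134 in control libraries. In all 3 kinds of cells replicate 3 was the highest for both genes, a pattern found in 11.9% of the 16611 genes. The median ratio of replicate 3 to replicate 1 was 9.96 for HLA-DMA and 55.1 for HLA-DMB. What distinguished the numbered replicates is not given in the sources used here, and its part in these levels was not tested. In the GENCODE annotation both genes overlap the same protein-coding gene on their own strand, HLA-DMA by 4.51 kb and HLA-DMB by 3.665 kb. HLA-DMA also overlaps BRD2 by 0.501 kb on the opposite strand. How far reads of these neighbours entered the counts was not tested.

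Against this spread, no effect of HIF-1α on HLA-DM was detectable. The log2 fold change against control was 0.45 ± 1.22 for HLA-DMA (adjusted p = 0.861, edgeR) and -0.31 ± 1.61 for HLA-DMB (adjusted p = 0.932, edgeR). With the replicate number as a block the errors shrank to 0.59 and 0.43, and the estimates moved to 0.19 and -0.08 (adjusted p = 0.846 and 0.907, edgeR). HLA-DMB was lower in HIF-2α overexpressing than in control cells in 3 of 3 pairs, as were CD74 and CIITA, and 18.5% of the 16611 genes were so. Both libraries of pair 1 held 1 count of HLA-DMB, so that this pair was lower through library size alone. The log2 fold change of HLA-DMB in this comparison was -1.72 ± 0.47 with the block (adjusted p = 0.186, edgeR) and -1.92 ± 1.71 without (adjusted p = 0.869, edgeR). Without control replicate 3, which held 134 of its 143 control counts, it turned to 1.36.

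CD74 had the most counts of the 8 genes, and its levels followed both replicate number and cells. It had 251, 176 and 860 counts in HIF-1α re-expressing libraries 1, 2 and 3, 149, 158 and 287 in control, and 65, 79 and 267 in HIF-2α overexpressing libraries. Means were 8.87 ± 6.24 CPM, 5.28 ± 1.93 CPM and 3.73 ± 2.78 CPM (SD, n = 3 each). The groups overlapped, and replicate 3 was again the highest in each. Against control, HIF-1α re-expressing cells were higher in 2 of 3 pairs, with ratios of 1.60, 0.991 and 2.14. The log2 fold change was 0.75 ± 0.61 (adjusted p = 0.511, edgeR).

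Between HIF-1α re-expressing and HIF-2α overexpressing cells, CD74 was higher in 3 of 3 pairs, with ratios of 3.93, 1.62 and 2.33. The log2 fold change was 1.25 ± 0.62 (adjusted p = 0.410, edgeR) without and 1.29 ± 0.32 (adjusted p = 0.0478, edgeR) with the replicate number as a block, when 4.54% of the 14225 genes were called higher. The fit with the block is given because numbers were found to pair the libraries across cells. With DESeq2, without a block, the adjusted p of CD74 was 0.290. The call was lost in the fit with the block when number 1 (0.97 ± 0.36, adjusted p = 0.184, edgeR), number 2 (adjusted p = 0.0922, edgeR) or number 3 (adjusted p = 0.158, edgeR) was left out. LAPTM5, a lysosomal membrane protein of haematopoietic cells, was also higher in this comparison, at 3.36 ± 0.52 with the block (adjusted p = 0.00865, edgeR), and had 3.11, 1.24 and 11.8 CPM in HIF-1α re-expressing libraries against 0.602, 0.174 and 0.514 CPM in HIF-2α overexpressing ones. Without the block its adjusted p was 0.113 in edgeR and 0.000254 in DESeq2. Pooled counts put LAPTM5 at 3.04 times control in HIF-1α re-expressing and 0.231 times control in HIF-2α overexpressing cells. It was 1 of 14 listed markers of immune antigen-presenting cells. Of the 6 past the filter, 4 were higher in this comparison. The other 2 were lower, CD83 and CD40, at pooled ratios of 0.522 and 0.743. The part of LAPTM5 in the CD74 result was not tested.

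**Figure D1:**
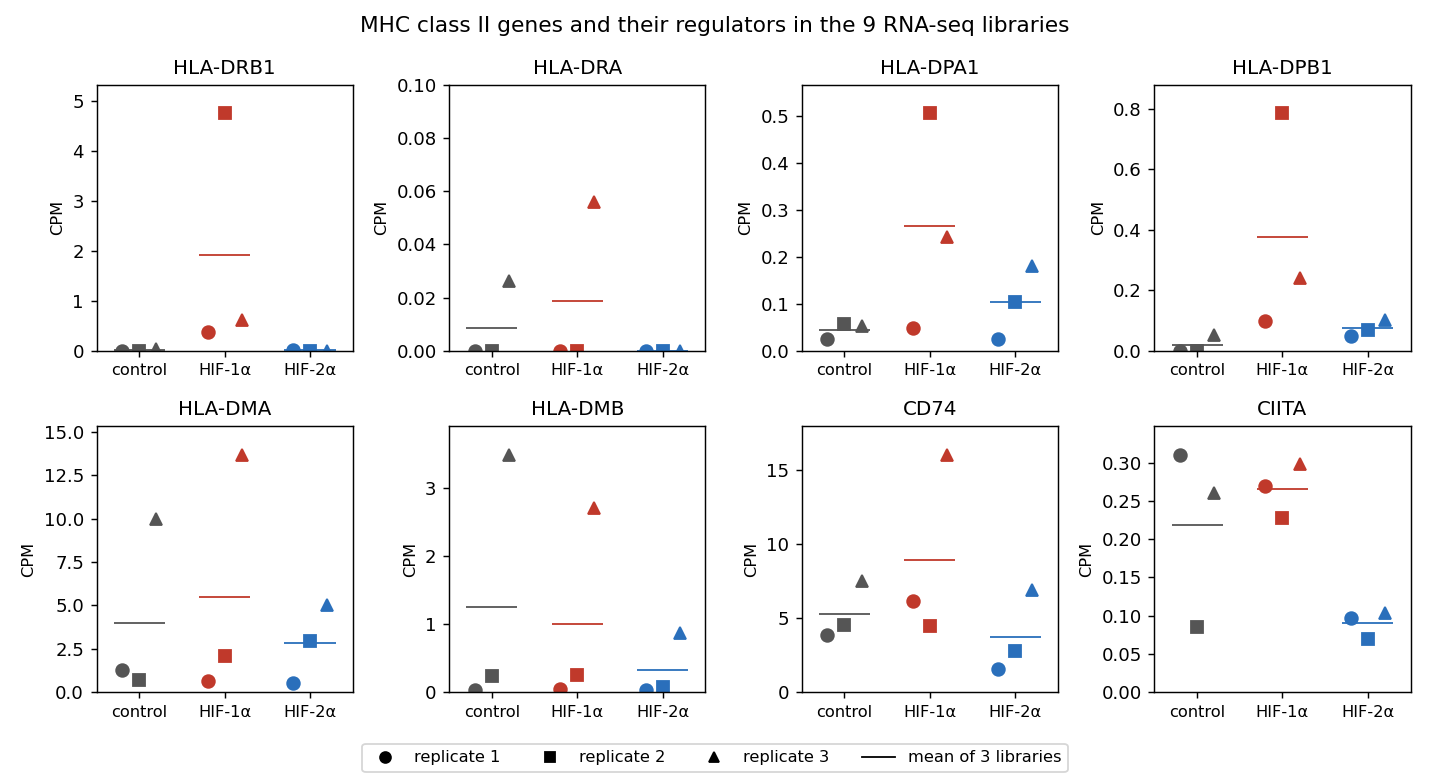
Level of each gene in CPM (linear axis, own scale per panel) in the 9 RNA-seq libraries, grouped by cells, with the marker giving the replicate number and the line the mean of 3 libraries. HLA-DRB1 reached 4.76 CPM in HIF-1α re-expressing replicate 2, whereas HLA-DMA, HLA-DMB and CD74 were highest in replicate 3 of all cells.

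HLA-DRB1 apart, for which no test is given, no gene of the family with an adjusted p passed against control in a fit without a block. This fit called 0 of 14225 genes in HIF-1α re-expressing against control cells, with 2757 genes at an unadjusted p under 0.05 (edgeR), and 0 in HIF-2α overexpressing against control cells, with 838. With the replicate block it called 1132 (7.96%) and 38 (0.267%), and DESeq2 called 753 (5.28%) and 65 (0.413%). Under each of these, none of HLA-DMA, HLA-DMB, CD74 and CIITA passed against control. DESeq2 gave an adjusted p to only 4 of the 8 genes in HIF-1α re-expressing against control cells. CIITA, HLA-DPA1, HLA-DPB1 and HLA-DRA had none there. In HIF-1α re-expressing against HIF-2α overexpressing cells, 7 genes (0.0492%) were called without and 843 (5.93%) with the block, and 649 (4.44%) by DESeq2. CPM was higher in 3 of 3 pairs for HLA-DRB1, HLA-DPA1, HLA-DPB1, HLA-DMB, CD74 and CIITA in that comparison (25.6% of the 16611 genes), and for HLA-DRB1, HLA-DPA1 and HLA-DPB1 against control (28.6%). In HIF-2α overexpressing against control cells it was higher in 3 of 3 pairs for HLA-DPB1 (18.3%), and for none of the 8 genes did all 3 libraries lie above control (5.8%).

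**Figure D2:**
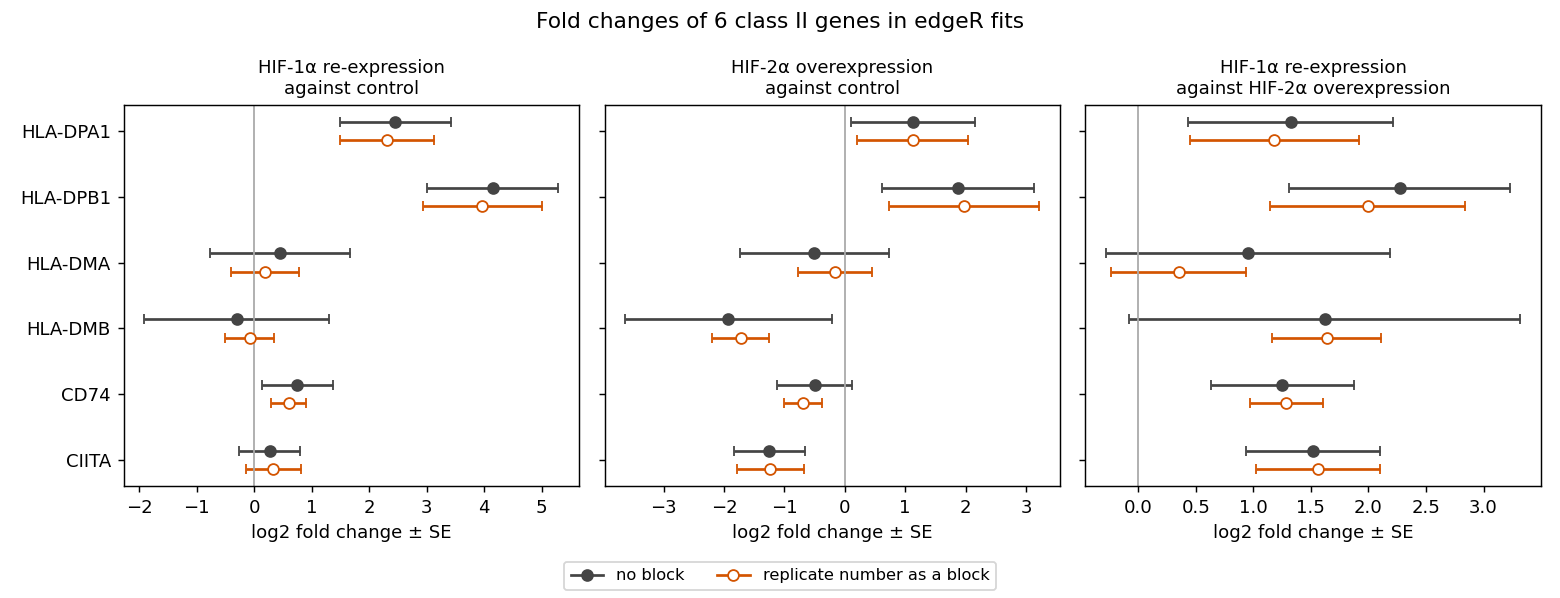
Log2 fold change ± SE (horizontal axis) of 6 genes in the 3 comparisons, from edgeR fits without (filled) and with (open) the replicate number as a block; HLA-DPA1 and HLA-DPB1 come from fits with no filter on low counts. The HLA-DM estimates in HIF-1α re-expressing against control cells lie within 1 SE of 0 in both fits, and the block narrows their errors from 1.22 to 0.59 for HLA-DMA and from 1.61 to 0.43 for HLA-DMB.

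The variance of log2 CPM over the 9 libraries was divided into a share between cells and a share between replicate numbers. HLA-DPB1 (71.1% and 13.4%) and CIITA (63.3% and 21.9%) varied mostly between cells, HLA-DPA1 (37.3% and 49.2%) and CD74 (35.2% and 54.9%) between both. HLA-DMA (1.11% and 82.2%) and HLA-DMB (6.24% and 91.9%) varied almost only between numbers. The shares of HLA-DRB1 were 86.5% and 1.74%, which its choice for a difference between cells fixes in large part. The medians over the tested genes were 32.6% and 35.9%, and a gene with no count, HLA-DRB5, came to 34.2% and 40.4% through library size alone, which limits the reading of the genes with few counts. Over the 9 libraries, Pearson's r of log2 CPM was 0.825 for HLA-DRB1 with HLA-DPB1, 0.822 for HLA-DPA1 with HLA-DPB1 and 0.869 for HLA-DMA with HLA-DMB, but 0.124 for HLA-DRB1 with HLA-DMA, 0.343 with CD74 and 0.528 with CIITA. These describe 9 libraries that share cells, replicate numbers and depth.

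**Figure D3:**
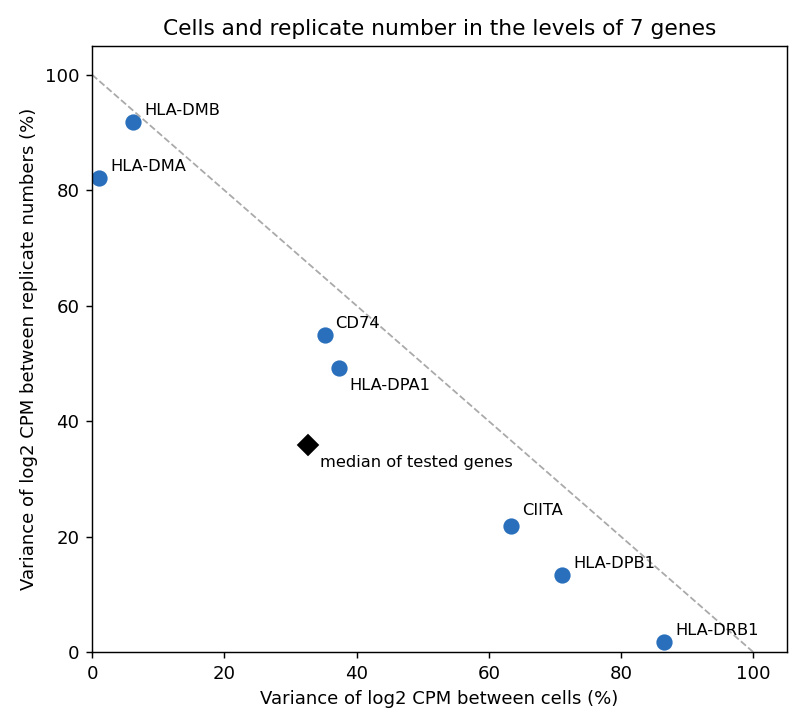
Share of the variance of log2 CPM over 9 libraries that lay between the 3 kinds of cells (horizontal, %) and between the 3 replicate numbers (vertical, %), for 7 genes (HLA-DRA, with 4 counts in all, is left out) and the median of the tested genes (diamond). HLA-DMB lies at the upper left (6.24% and 91.9%) and HLA-DPB1 toward the lower right (71.1% and 13.4%), beyond which lies HLA-DRB1, chosen for its difference between cells.

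Per kilobase of the canonical transcript, HLA-DMA and CD74 led in control cells, at 3.65 ± 4.75 and 3.19 ± 1.17 CPM per kb (SD, n = 3), a difference within their spread, followed by HLA-DMB at 0.926 ± 1.44. In HIF-1α re-expressing cells the order was CD74 (5.37 ± 3.77 CPM per kb), HLA-DMA (4.99 ± 6.55) and HLA-DRB1 (1.56 ± 2.02), and none of these neighbours differed beyond their spread. In HIF-2α overexpressing cells it was HLA-DMA (2.58 ± 2.07 CPM per kb) and CD74 (2.25 ± 1.68), which did not differ beyond theirs. HLA-DPA1 (0.0264 ± 0.0098, 0.156 ± 0.135 and 0.0604 ± 0.0457 CPM per kb in control, HIF-1α re-expressing and HIF-2α overexpressing cells), HLA-DPB1 and HLA-DRA were lower than CD74 in each. CIITA was not ranked, since its annotated transcript of 16.061 kb ends in a long last exon whose use in these cells was not tested.

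The genes with the pattern most like HLA-DRB1, by Pearson's r of log2 CPM over the 9 libraries, were CREG2 (0.968), RORA (0.959), PLEKHH1 (0.957), HOXA13 (0.952) and KIAA1467 (0.950). RORA, for example, had 0.637, 9.72 and 1.47 CPM in HIF-1α re-expressing libraries 1, 2 and 3 and at most 0.209 CPM elsewhere. All 5 were highest in HIF-1α re-expressing replicate 2, as was HLA-DRB1, for their likeness to which they were picked. The genes most like CD74 were NOXA1 (0.974), RUNX2 (0.970) and SOD3 (0.958), which were highest in HIF-1α re-expressing replicate 3. So was CD74, for their likeness to which they were picked.

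Of 11 further class II genes, 4 had a count and 1, HLA-DOB (the β chain of HLA-DO, which restrains HLA-DM), could be tested; the 3 with the highest mean CPM over the 9 libraries, which is not scaled by length, were HLA-DOB at 0.340 CPM, HLA-DOA at 0.0555 CPM and HLA-DQB1 at 0.00289 CPM. HLA-DOB was at -0.60 ± 0.70 in HIF-1α re-expressing against control cells (adjusted p = 0.660, edgeR). All 13 regulators of class II transcription were tested, led by the coactivators EP300 (81.1 CPM) and CREBBP (75.7 CPM) and by CREB1 (64.1 CPM). Of these 0 passed in any comparison with edgeR, with or without the block, or with DESeq2. In HIF-1α re-expressing against control cells 2 had an unadjusted p under 0.05 in edgeR without and 4 with the block. Over all tested genes the shares were 19.4% and 33.2%. The median log2 fold change of the 13 regulators in HIF-1α re-expressing against control cells was 0.06, beside 0.04 for all tested genes. It does not describe single regulators, of which 7 were higher and 6 lower. RFX5 and NFYA, subunits of the complexes on which CIITA assembles, had means of 39.4 and 57.7 CPM.

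Of 8 genes that lead from interferon γ to CIITA, JAK1 (335 CPM) and IRF1 (50.5 CPM) were among the 3 with the highest mean CPM, and 0 passed in edgeR without the block or in DESeq2, with 1 at an unadjusted p under 0.05 in each of the comparisons that involve HIF-1α re-expressing cells. Their median log2 fold change was 0.10 in HIF-1α re-expressing against control cells. In edgeR without the block, 19.4% of all tested genes had an unadjusted p under 0.05 in that comparison. Between HIF-1α re-expressing and HIF-2α overexpressing cells the share was 13.6%. SOCS1, an inhibitor of interferon signalling, was higher in HIF-1α re-expressing than in HIF-2α overexpressing cells with the block (1.65 ± 0.38, adjusted p = 0.0385, edgeR) but did not pass without it (adjusted p = 0.263, edgeR). Of 11 names for endosomal processing, 10 were in the table, led by the cathepsins CTSD (3583 CPM), CTSB (376 CPM) and CTSL (263 CPM). In edgeR without the block 0 of the 10 passed in any comparison, with 1 or 2 at an unadjusted p under 0.05. Of all tested genes, 5.89% to 19.4% had such a p in the 3 comparisons. The median log2 fold change of the 10 in HIF-1α re-expressing against control cells was 0.10. MARCH1, a ubiquitin ligase that removes class II molecules from the surface, was at 1.15 ± 0.34 there (adjusted p = 0.162, edgeR), at an adjusted p of 0.0510 with the block (edgeR) and at 0.0236 in DESeq2, which called no other gene of this list against control. With the block, IFI30, a thiol reductase that unfolds antigens, was higher (0.96 ± 0.22, adjusted p = 0.0357, edgeR) and CTSS, the cathepsin that trims CD74, lower (-2.19 ± 0.43, adjusted p = 0.0206, edgeR) in HIF-1α re-expressing than in HIF-2α overexpressing cells. Neither passed in edgeR without the block, at an adjusted p of 0.236 for IFI30 and 0.219 for CTSS, whereas DESeq2, also without a block, called CTSS (adjusted p = 0.0288) and not IFI30 (adjusted p = 0.102).

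The 13 class I genes and neighbours of class II in the region gave 0 calls in any of the 3 comparisons in edgeR with or without the block or in DESeq2. In HIF-1α re-expressing against control cells 1 had an unadjusted p under 0.05 in edgeR without and 3 with the block. Over all tested genes the shares were 19.4% and 33.2%. The median log2 fold change of these 13 genes was 0.23 in HIF-1α re-expressing against control cells. B2M, the class I light chain (1715 CPM), and HLA-B, a class I heavy chain (846 CPM), were among the 3 with the highest means. HLA-B was at 0.83 ± 0.36 (adjusted p = 0.251, edgeR). Of 14 markers of immune antigen-presenting cells, the summed level was 45.9 to 52.7 CPM in control, 36.4 to 50.4 CPM in HIF-1α re-expressing and 41.0 to 65.8 CPM in HIF-2α overexpressing libraries, and it rested mostly on CD40 (31.4 CPM) and CD83 (10.7 CPM), followed by LAPTM5 (2.59 CPM). Of the 14, 3, 2 and 5 were at 0 in all libraries of these cells, respectively. The 6 that passed the filter of edgeR had a median log2 fold change of 0.52 in HIF-1α re-expressing against control cells and 1.08 against HIF-2α overexpressing cells, beside 0.04 and 0.02 for all tested genes. In these comparisons 0 and 2 of the 6 had an unadjusted p under 0.05 in edgeR without the block, and 3 and 4 with it. The shares over all tested genes were 19.4% and 13.6% without the block, and 33.2% and 24.3% with it. ITGAX, an integrin of dendritic cells and macrophages, had 134, 92 and 230 counts in HIF-1α re-expressing libraries 1, 2 and 3, 98, 18 and 48 in control and 31, 43 and 85 in HIF-2α overexpressing libraries. Its log2 fold change against control was 1.20 ± 0.60 (adjusted p = 0.295, edgeR). CD14, of monocytes, was at 0.82 ± 0.74 (adjusted p = 0.557, edgeR), LYZ, lysozyme, at 0.23 ± 0.40 (adjusted p = 0.780, edgeR), CD40 at -0.49 ± 0.23 (adjusted p = 0.278, edgeR) and CD83 at -0.49 ± 0.41 (adjusted p = 0.527, edgeR). Among the markers under the filter, TYROBP had none, and PTPRC, the common leukocyte antigen, had 2, 1 and 2 counts in HIF-1α re-expressing libraries 1, 2 and 3, 3 in control replicate 2 and none elsewhere. The part of these markers in the levels of HLA-DRB1, HLA-DPB1 and CD74 was not tested. Of the renal markers, led by VIM (5042 CPM), CA12 (701 CPM) and KRT8 (419 CPM), the median log2 fold change in HIF-1α re-expressing against control cells was -0.43. KRT18 was lower in HIF-1α re-expressing than in control cells with the block (-0.86 ± 0.19, adjusted p = 0.0405, edgeR) and CDH6 higher than in HIF-2α overexpressing cells (2.04 ± 0.38, adjusted p = 0.0172, edgeR). Without the block neither passed (adjusted p = 0.196 and 0.436, edgeR).

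HIF binding was then examined near the start sites, within 10 kb, a distance that the study's methods use to pick genes for a prognostic predictor and not for its comparison with expression. Of 29309 peaks in the 7 lists, 1 lay within 10 kb of a start site of any of the 8 genes. For comparison, 34.8% of 12877 tested and placed genes had a HIF-1α peak, and 55.2% a peak of any list, within that distance. Of the 8 genes, 6 lie in a stretch without any listed peak, described below. For these, an unlisted site cannot be told apart from an unbound one. The single peak was a HIF-1β window in control cells at chr16:10964161-10966660 (GRCh37), 5.293 kb downstream of an annotated start of CIITA and within an intron. No other list overlapped it, in particular not that of HIF-1α. The window of 2500 bp held 4 copies of the HIF core (ACGTG or GCGTG), of which 1 lay in the central 150 bases. These are shown, plus strand, with that core in capitals, as the middle of the single window listed near any of the genes. Where within the window binding lay is not given.
CIITA intron, chr16:10965336-10965485: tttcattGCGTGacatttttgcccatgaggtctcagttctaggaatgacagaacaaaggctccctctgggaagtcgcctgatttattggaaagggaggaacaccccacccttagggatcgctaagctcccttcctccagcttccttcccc
The shares of genes with a peak that near were 25.9% (HIF-1β) and 5.31% (HIF-2α) in control cells, 40.9% (HIF-1β) and 4.22% (HIF-2α) in HIF-1α re-expressing cells, and 16.3% (HIF-1β) and 14.7% (HIF-2α) in HIF-2α overexpressing cells. With 1 library per antiserum and cells and no score in the lists, no test was made.

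The nearest HIF-1α peak to CIITA was 37.9 kb upstream, nearest to the start of TVP23A. For CD74, at chr5:149781200-149792532 (GRCh37), it was 36.7 kb upstream, 0.003 kb from a start of RPS14, and HIF-1β in control cells had a peak there at 36.6 kb. For the 6 HLA genes no peak came near. HLA-DRB1 lies at chr6:32545679-32557625, and its nearest HIF-1α peak was 1002 kb away, beside LINC00336. The nearest HIF-1α peak was 1152 kb from HLA-DRA, 511 kb from HLA-DPA1 and HLA-DPB1, 622 kb from HLA-DMA and 650 kb from HLA-DMB, and was the same peak each time.

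**Figure D4:**
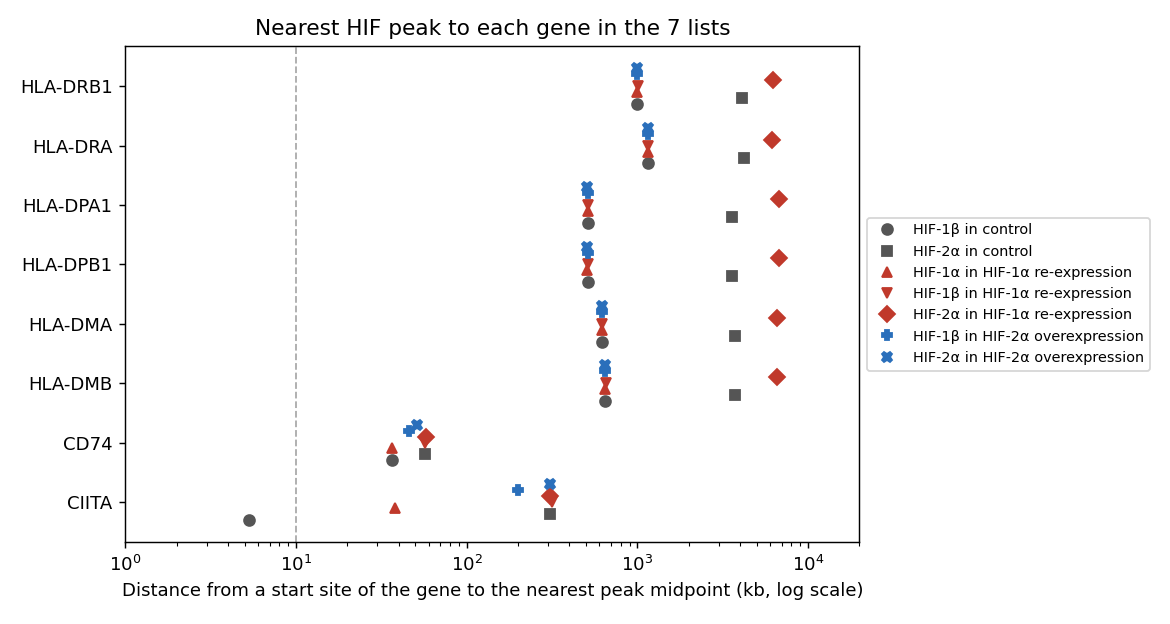
Distance (kb, log scale) from a start site of each gene to the nearest peak midpoint in the 7 ChIP-seq lists, with markers for antiserum and cells and a dashed line at 10 kb. A single point, HIF-1β in control cells at CIITA (5.293 kb), lies left of the line, and all distances for the 6 HLA genes exceed 509 kb. These 6 lie in a stretch without any listed peak.

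The peak-free stretch around the HLA genes ran from chr6:29910888 to 33558211 (midpoints of the flanking peaks, GRCh37), 3.647 Mb. It held 313 annotated genes, of them 157 protein-coding and 108 tested in RNA-seq, and 67 of the tested genes had a mean of at least 10 CPM. None of the 108 had a peak within 10 kb in any of the 7 lists, against 55.2% of placed genes in the genome. Ranked by the tested genes inside, it was the first of all peak-free intervals, and the next held 36. The methods state that reads of low mapping quality and blacklisted regions were removed before peaks were called, and that called peaks were then filtered on their read count against random background regions. How far the empty stretch reflects these steps was not tested, and an unlisted site cannot be told apart from an unbound one there.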

How the data were processed

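Binding was measured by ChIP-seq (7 peak lists) and expression by RNA-seq (9 libraries) in 786-O cells. The authors deposited raw read counts per gene symbol, not normalized. Per the methods and the submitters' processing notes, reads were trimmed (Trim Galore 0.3.3), aligned to GRCh37 with TopHat2 2.0.8b and Bowtie 1.0.0, freed of fragments that did not map uniquely, and counted with HTSeq 0.5.4p3 in its strict intersection mode on UCSC genes. The peak lists hold positions only: reads were aligned with BWA 0.7.5a-r405, filtered for mapping quality, blacklisted regions and duplicates, and peaks that T-PIC and MACS each called were kept only where their read count lay above a high percentile of random background regions.

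The count table was fitted with edgeR 4.0.16 (R 4.3.3). A single model held the 9 libraries, with cells as its term and TMM factors. Genes with low counts were dropped by filterByExpr, and the two-sided quasi-likelihood test was followed by Benjamini-Hochberg adjustment over all tested genes, with a threshold of 0.05. The alternatives were the replicate number as a block, DESeq2 1.42.0, RLE size factors, other filters, 2 groups only and leaving out libraries. Deviations of log2 CPM from the mean of each kind of cells were correlated across genes between libraries of different cells. Where both carried 1 number (9 pairs) r was 0.330 to 0.647, and otherwise (18 pairs) -0.483 to 0.0393. The numbers of the labels therefore pair the libraries. The filtered edgeR fit, with and without the block, was also run on simulated counts for HIF-1α re-expressing against control cells. Changes were planted only in genes with higher counts than CIITA and the HLA-DP genes. The fit without the filter and DESeq2 were not simulated. No 2 libraries of a group agreed within counting noise. Counting intervals (95%, exact) cover counting error only. CPM is per 1000000 of the TMM-scaled library size, and log2 CPM has 0.5 counts added.

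Peaks were placed by midpoint against start sites of GENCODE (lifted to GRCh37), in Python 3.11.15. Of 23441 symbols, 20654 matched that annotation. Promoters are RefSeq sequences.

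The members and lists were chosen with earlier results of these data known. Beside the 8 genes, HIF1A and EPAS1, the rule names of each list the genes past the threshold in any comparison, with or without the block, and the 3 with the highest mean CPM, and the 5 and 3 genes most like HLA-DRB1 and CD74. RFX5, NFYA, HLA-DRB3, HLA-DRB4, HLA-DRB5, HLA-DRB6, TYROBP, PTPRC, ITGAX, CD14, LYZ and MARCH1 were named outside it, after their values were seen. Some genes that the rule names are not reported here.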

Additional observations from a re-analysis of the deposited data

Results flagged for a closer look

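CD74 differed between HIF-1α re-expressing and HIF-2α overexpressing cells when the replicate number was a block (log2 fold change 1.29 ± 0.32, adjusted p = 0.0478, edgeR), higher in 3 of 3 pairs. Its fold changes against the control cells were 0.60 after HIF-1α re-expression and -0.69 after HIF-2α overexpression in the same fit, neither past the threshold, and this difference between both effects is what drew attention. Without the block its adjusted p was 0.410 (edgeR), and over the 29 settings tried it ranged from 0.0316 to 0.869, with a positive log2 fold change in each.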

How the results depend on the processing

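Under the alternatives, 247 of 265 tested values of these genes kept their direction and their side of the threshold, 16 reversed and 2 passed it. This tally holds the fit with a block and no filter only for the genes under the filter, so that the pass of CD74 in that fit is not in it. The reversals, 9 for HLA-DMA, 5 for HLA-DMB and 2 for CIITA, came when libraries were left out, and 0 had an adjusted p under 0.05. Leaving out libraries gave log2 fold changes for HLA-DMA of -1.57 to 2.43 (HIF-1α against control), -1.21 to 1.49 (HIF-2α against control) and -1.07 to 1.64 (HIF-1α against HIF-2α), for HLA-DMB of -3.03 to 2.98, -4.72 to 1.36 and -1.10 to 4.38, and for CIITA of -0.12 to 0.64 (HIF-1α against control). For HLA-DRB1 the range was 4.94 to 9.39 against control and 4.96 to 9.40 against HIF-2α, the lowest without replicate 2.

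With the replicate number as a block, the pairing raised the count of genes called from 0 to 1132 (HIF-1α against control), from 0 to 38 (HIF-2α against control) and from 7 to 843 (HIF-1α against HIF-2α). Of the genes other than HLA-DRB1, the block brought 1 past the threshold in HIF-1α against HIF-2α (CD74, 1.29), also without the filter (1), and 1 in HIF-1α against control without the filter (HLA-DPB1, 3.97). It changed no other call of these genes. Without the block, DESeq2 called 753, 65 and 649 genes. Without the filter 0, 1 and 82 were called, with at least 1 CPM in 3 libraries 31 in HIF-1α against HIF-2α, and with only the 2 groups compared 2 in HIF-2α against control and 0 in HIF-1α against HIF-2α. With the block, leaving out number 1, 2 or 3 gave 295, 0 and 1 calls in HIF-1α against control. It gave 30, 9 and 7 in HIF-2α against control, and 334, 386 and 265 in HIF-1α against HIF-2α. Without the block, leaving out single libraries gave 0, 0 to 2 and 0 to 29. The cause of these shifts was not tested. Peaks near the genes numbered 0 within 5 kb, 5 within 50 kb, 37 within 100 kb (a distance added after the data were seen) and 0 when shared by lists. Low counts limit HLA-DRA, HLA-DPA1, HLA-DPB1 and CIITA, for which 3 counts in a library were 0.0558 to 0.105 CPM.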
